A study of Homo sapiens with 8 samples.

Results

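Ribosome footprints of 8 transcription factors that define the adrenergic state of neuroblastoma were followed in IMR32 cells: PHOX2A, HAND2, GATA2, GATA3, ISL1, TBX2, KLF13 and MEIS2. They were chosen by name from the deposited table of 60651 genes, with the Ensembl identifier matched to its symbol and the version ignored, and all 8 were found. IMR32 is a human neuroblastoma line with amplified MYCN, labelled as wild type and as neuroblasts. There were 2 groups of 4 libraries each, described in the series as biological replicates: cells given CR31B, an analogue of silvestrol, and control cells given the solvent DMSO at 0.1%. Treatment lasted 6 h, and cycloheximide was added to all cells before harvest. All cells thus share 1 line and 1 time point, and total mRNA was not analysed here, so a change in footprints cannot be divided into mRNA level and translation.

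Adrenergic neuroblastoma cells keep the identity of sympathetic neuroblasts through a small set of transcription factors that bind the enhancers of each other's genes, a core regulatory circuit. PHOX2A is a homeodomain protein of noradrenergic neurons, and HAND2 is a basic helix-loop-helix protein needed for the noradrenergic phenotype. GATA2 and GATA3 are zinc finger proteins, ISL1 is a LIM-homeodomain protein of developing neurons, and MEIS2 is a TALE homeodomain cofactor. TBX2 is a T-box repressor and KLF13 a Krüppel-like zinc finger protein. Silvestrol and its analogues clamp the helicase eIF4A on purine-rich RNA in 5′ leaders, so the leaders of the 8 mRNAs are described first.

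The sequence around the start codon, where initiation ends, and the longest unbroken run of purines in the annotated 5′ leader were read from 1 GENCODE release 29 transcript per gene, the principal isoform. The start codon stands in capitals, with 12 bases before and 6 after it.
PHOX2A: ccccccgggccgATGgactac
HAND2: gcggagggcgaaATGagtctg
GATA2: ccgccgccggccATGgaggtg
GATA3: acagccgaggccATGgaggtg
ISL1: cctcttacagatATGggagac
TBX2: ccggatgtcccgATGagagag
KLF13: ccagcccgcagcATGgcagcc
MEIS2: gagcgcagactgATGgcgcaa
A purine at position -3, the best known element of a strong start context, was present in 5 of the 8 and in 86.6% of 9996 tested protein-coding genes. PHOX2A, TBX2 and MEIS2 lacked it. A G directly after the start codon was present in 6 of the 8, against 53.7% of genes, and was missing in HAND2 and TBX2. TBX2 alone among the 8 had neither element.

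The purine runs are shown for the 3 factors whose footprints changed and for MEIS2, which had the longest run. The run is in capitals with up to 5 bases on either side, and of the MEIS2 run the first 30 bases are given.
HAND2: ctggtGGGGGGAGGGGAAGAGGcggga
TBX2: cggacGGGAAGccccg
KLF13: agcccGAGGAGAGGGcgcgc
MEIS2: AGGAGGAGGAGGAAGAAGAGGAAAAAAGAG
The MEIS2 run spans 42 bases and exceeded that of 99.9% of tested protein-coding genes, whose median was 8 bases. HAND2 had a run of 17 bases, longer than in 94.5% of genes, within a leader of 940 bases that was itself longer than in 97.1% of genes. KLF13 had a run of 10 bases and TBX2 one of 6. The runs of ISL1, GATA3, GATA2 and PHOX2A spanned 12, 9, 7 and 4 bases. The leader of TBX2 had the highest GC content of the 8, at 82.2% against a median of 66.4%, and that of MEIS2 the lowest, at 43.2%. GGC repeated 4 times without a break, searched on the mRNA strand, occurred in the leader of HAND2 and in none of the other 7, against 4.51% of genes. The leader of HAND2 also held 5 upstream ATG triplets, that of KLF13 3, and those of GATA2 and TBX2 1 each, while 54.2% of genes held at least 1.

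Levels are given in TPM, a read density that divides by transcript length and brings each library to the same sum. A rise or fall is therefore relative to the other genes, and a change in all footprints together cannot be seen. In bulk libraries, fewer cells with a footprint and fewer footprints per cell cannot be told apart. A gene was tested if it averaged 1 TPM or more over the 8 libraries, which left 11778 genes and kept all 8 factors. Log2 differences are on the scale of log2(TPM + 1), CR31B minus DMSO, and p-values are from limma with Benjamini-Hochberg adjustment over all genes tested. With adjusted p under 0.05, 879 genes or 7.46% were called, 3.45% higher and 4.02% lower in CR31B, and 2 factors (TBX2 and HAND2) were called higher and 1 (KLF13) lower. The median log2 difference was 0.15 over the 8 factors and 0.029 over all tested genes. The groups did not overlap for these 3 factors, as for 16.2% of all tested genes, 8.07% with CR31B above and 8.14% with CR31B below.

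**Figure D1:**
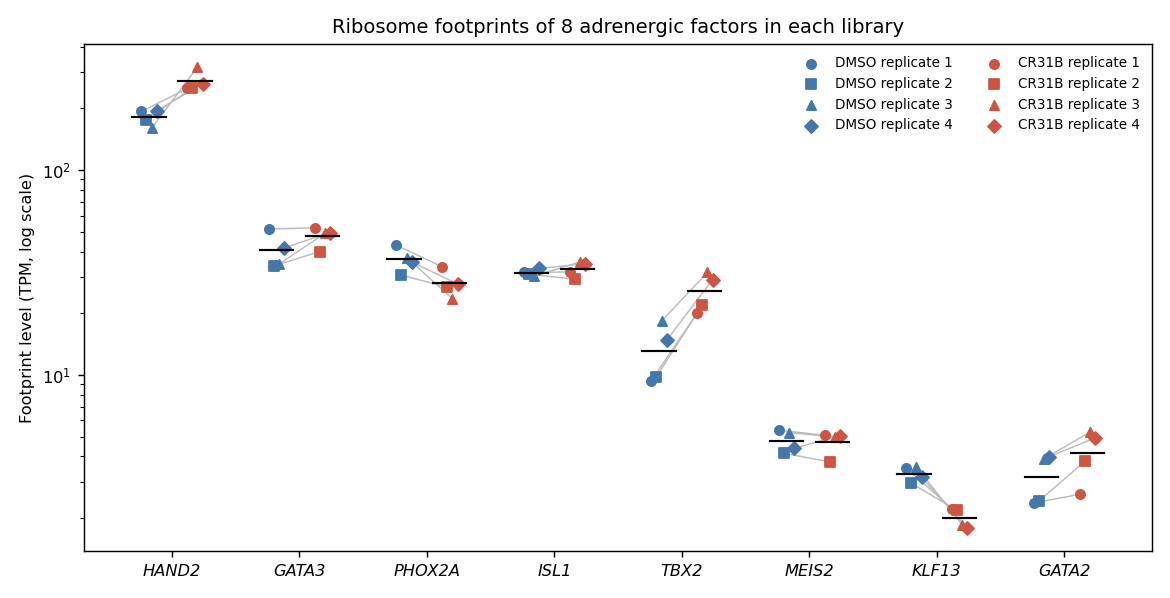
Footprint level in TPM (log axis) of each factor in every library, with DMSO in blue and CR31B in red, marker shape for the replicate number, a grey line between libraries of the same number and a black bar for the mean of 4. HAND2 stands above all other factors in both groups, and TBX2 rises along all 4 lines while KLF13 falls along all 4.

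TBX2 (ENSG00000121068.14, chr17:61399896-61409466, + strand, 7 exons) had the largest change. Its footprints were at 9.38, 9.79, 18.31 and 14.74 TPM in DMSO replicates 1 to 4 and at 20.07, 21.98, 31.65 and 29.18 TPM in CR31B replicates 1 to 4. All CR31B libraries thus lay above all DMSO libraries, and replicates 3 and 4 were the higher ones in both groups. The DMSO mean was 13.1 ± 4.27 TPM and the CR31B mean 25.7 ± 5.57 TPM (SD, n = 4 each), 1.97 times as high. The log2 difference was 0.95 (95% confidence interval or CI 0.46 to 1.44, SE 0.22, adjusted p 0.0285 by limma). By exact permutation the unadjusted p was 0.0286, the smallest that 4 against 4 allow and given by any groups that do not overlap. By size of change in either direction it ranked 310 of 11778. Within replicate numbers the log2 differences were 1.02, 1.09, 0.76 and 0.94, and with the number as a block the SE was 0.10 and the limma adjusted p 0.00332. The call was lost when CR31B replicate 3 or 4 or DMSO replicate 1, 2 or 4 was left out, with limma adjusted p from 0.0159 to 0.0791 over the 8 omissions.

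HAND2 (ENSG00000164107.9, chr4:173524969-173530229, - strand, 2 exons) rose from an already high level. DMSO replicates 1 to 4 stood at 193.33, 176.61, 159.95 and 195.24 TPM, and CR31B replicates 1 to 4 at 250.39, 252.26, 318.77 and 263.58 TPM. The lowest CR31B library was above the highest DMSO library, and CR31B replicate 3 was the highest while its DMSO counterpart was the lowest. The mean went from 181.3 ± 16.5 to 271 ± 32.2 TPM (SD, n = 4 each), 1.496 times as high. The log2 difference was 0.58 (95% CI 0.31 to 0.85, SE 0.12, adjusted p 0.0188 by limma, and unadjusted p 0.0286 by exact permutation). Without DMSO replicate 2 the adjusted p in limma was 0.0577, and with each other library left out it stayed under 0.05.

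Reads of HAND2 can be shared with another gene. Its exons overlap those of HAND2-AS1, an antisense non-coding gene, over 867 of 3601 bases, and 24.5% of the 28-base words in its coding sequence also occur in transcripts of another gene on either strand. Whether counting used the strand is not given in the sources used here, so reads of this pair cannot be told apart. HAND2-AS1 was at 83.01, 87.83, 112.64 and 100.43 TPM in DMSO and at 119.41, 108.83, 191.52 and 134.21 TPM in CR31B. Its groups overlapped, with a log2 difference of 0.50 (SE 0.18, adjusted p 0.121 by limma, and 0.0220 with the replicate block). With both genes summed, the log2 difference was 0.55 (adjusted p in limma 0.0304). In each of the other 7 factors at most 1.37% of such words were shared.

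KLF13 (ENSG00000169926.11, chr15:31326855-31435665, + strand, 2 exons) fell. It was at 3.51, 2.95, 3.54 and 3.16 TPM in DMSO replicates 1 to 4 and at 2.22, 2.18, 1.85 and 1.79 TPM in CR31B replicates 1 to 4. All CR31B libraries were below all DMSO libraries, and the spread within each group was small. The mean went from 3.29 ± 0.285 to 2.01 ± 0.221 TPM (SD, n = 4 each), 0.611 times the control. The log2 difference was -0.51 (95% CI -0.80 to -0.22, SE 0.13, adjusted p 0.0405 by limma, and unadjusted p 0.0286 by exact permutation). The size depends on the pseudocount, at -0.69 with 0.1 and -0.24 with 5. The call was lost when any single library was left out, with adjusted p in limma from 0.0548 to 0.117. Its low TPM need not mean few reads. Taking all its reads to come from the transcript of 6825 bases, 545 to 1826 reads per library were estimated. KLF13 has 7 annotated transcripts, and shorter ones would give fewer reads.

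PHOX2A (ENSG00000165462.5, chr11:72239077-72245664, - strand) was lower in CR31B in all 4 replicate numbers, as were KLF13 and 18% of tested genes, but did not pass. It stood at 42.95, 30.68, 37.41 and 35.63 TPM in DMSO and at 33.73, 26.81, 23.58 and 27.79 TPM in CR31B. Only DMSO replicate 2 and CR31B replicate 1 crossed between the groups. The means were 36.7 ± 5.06 and 28.0 ± 4.24 TPM (SD, n = 4 each), with a log2 difference of -0.38 (95% CI -0.69 to -0.067, SE 0.14, adjusted p 0.136 by limma, and 0.0560 with the replicate block). CR31B replicate 1 stood apart from its group in makeup: protein-coding genes held 61.3% of its TPM, and 51.8% to 52.3% in replicates 2 to 4. In the DMSO libraries protein-coding genes held 52.0% to 58.4%, with replicate 1 the highest. Without CR31B replicate 1 the difference was -0.47 (adjusted p in limma 0.0741), and without DMSO replicate 1 it was -0.30 (adjusted p in limma 0.295). With TPM rescaled over protein-coding genes it was -0.35 (adjusted p in limma 0.0809).

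The GATA factors were each higher in CR31B in all 4 replicate numbers, as were TBX2, HAND2 and 20.1% of tested genes, and neither passed. GATA3 (ENSG00000107485.18, chr10:8045378-8075203, + strand) was at 51.56, 34.04, 34.77 and 41.69 TPM in DMSO and at 52.30, 40.04, 49.08 and 49.57 TPM in CR31B. DMSO replicates 1 and 4 lay within the range of the CR31B libraries, and the log2 difference was 0.24 (95% CI -0.089 to 0.58, SE 0.15, adjusted p 0.366 by limma). GATA2 (ENSG00000179348.12, chr3:128479427-128493185, - strand) was at 2.37, 2.42, 3.90 and 3.98 TPM in DMSO and at 2.61, 3.78, 5.24 and 4.92 TPM in CR31B. It had a log2 difference of 0.30 (95% CI -0.18 to 0.77, SE 0.21, adjusted p 0.447 by limma), and its replicates 3 and 4 were the higher ones in both groups, as in TBX2. After the group means were removed, GATA2 and TBX2 had a correlation of 0.92 over the 8 libraries, the highest of any pair among the 8 factors, where all points share their library and its scaling.

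ISL1 and MEIS2 showed the smallest differences. ISL1 (ENSG00000016082.15, chr5:51383391-51394738, + strand) was at 31.69, 31.06, 30.28 and 33.10 TPM in DMSO and at 31.80, 29.31, 35.65 and 34.88 TPM in CR31B. The groups overlapped, and the log2 difference was 0.056 (SE 0.10), with a 95% CI of -0.18 to 0.29 (adjusted p in limma 0.798). MEIS2 (ENSG00000134138.20, chr15:36889204-37101299, - strand, 27 annotated transcripts) was at 5.37, 4.14, 5.23 and 4.38 TPM in DMSO and at 5.07, 3.76, 4.97 and 5.05 TPM in CR31B. Its log2 difference was -0.018 (SE 0.14), with a 95% CI of -0.33 to 0.29 (adjusted p in limma 0.955), and its sign turned when CR31B replicate 2, DMSO replicate 1 or DMSO replicate 3 was left out. For both factors a change of the size seen in TBX2 lies outside the interval.

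**Figure D2:**
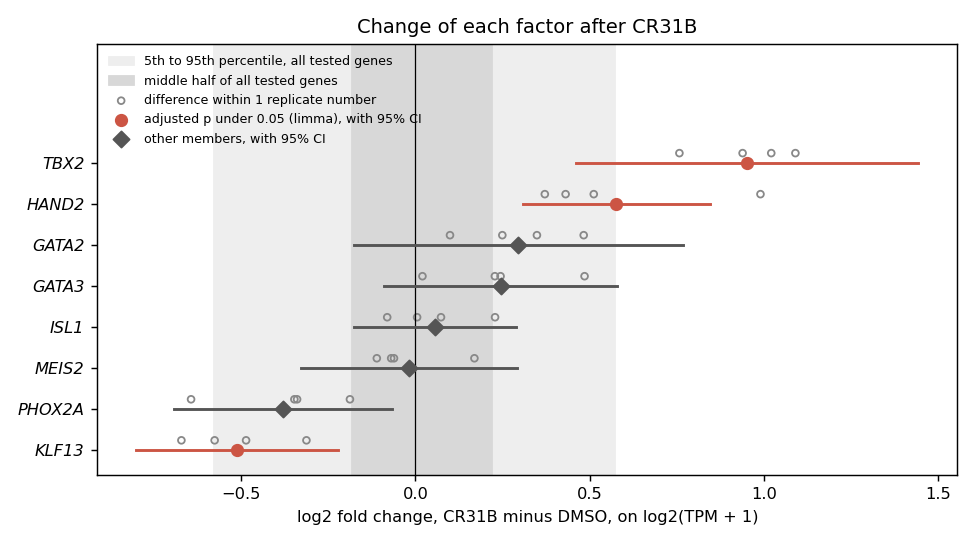
Log2 fold change of each factor with its 95% confidence interval, in red where the limma adjusted p was under 0.05, with open circles for the difference within each replicate number and grey bands for all tested genes. TBX2, at 0.95, is the only factor whose 4 within-number differences all lie beyond the 95th percentile of 0.57 of all tested genes.

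The factors differed widely in level. In DMSO, HAND2 ranked 520 of 19871 protein-coding genes by mean TPM, GATA3 1986, PHOX2A 2143, ISL1 2415, TBX2 4448, MEIS2 7110, KLF13 8063 and GATA2 8143. HAND2 was 4.47 times as high as GATA3, the next in order, and its libraries did not overlap with those of GATA3. GATA3 and PHOX2A overlapped, PHOX2A and ISL1 overlapped, and KLF13 and GATA2 overlapped. ISL1 was above TBX2, TBX2 above MEIS2 and MEIS2 above KLF13 in every DMSO library. In CR31B, TBX2 ranked 2880 and PHOX2A 2709, and TBX2 libraries then overlapped with those of ISL1. Within each CR31B library ISL1 was still above TBX2. KLF13 was below GATA2 in every CR31B library, without overlap. HAND2 ranked 347 there and KLF13 9205.

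TPM divides by the whole transcript, although footprints of translating ribosomes lie in the coding sequence. The files bear on the length used: for 464 single-transcript genes with long untranslated parts, 0 of 994 values fell below 0.6 reads when the transcript length was taken, and 56 did with the coding length. A factor with long untranslated ends is therefore listed lower than it would be per coding length. The coding sequence took 12.7% of the KLF13 transcript, 23.4% of that of HAND2 and 29.7% of that of MEIS2, against a median of 48.9% over tested protein-coding genes. Rescaled to coding length, HAND2 was at 774 ± 70.5, GATA3 at 80.8 ± 16.2, ISL1 at 74.1 ± 2.80, PHOX2A at 73.1 ± 10.1, KLF13 at 25.99 ± 2.25, TBX2 at 20.4 ± 6.67, MEIS2 at 16.1 ± 2.06 and GATA2 at 7.41 ± 2.09 in DMSO (SD, n = 4 each). KLF13 moved from rank 7811 to 4653 of the 9996 tested protein-coding genes, and its libraries then overlapped with those of TBX2. MEIS2 moved from 6893 to 5828, and HAND2 from 484 to 383. These values rest on 1 annotated transcript per gene, and the fold changes do not depend on them.

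**Figure D3:**
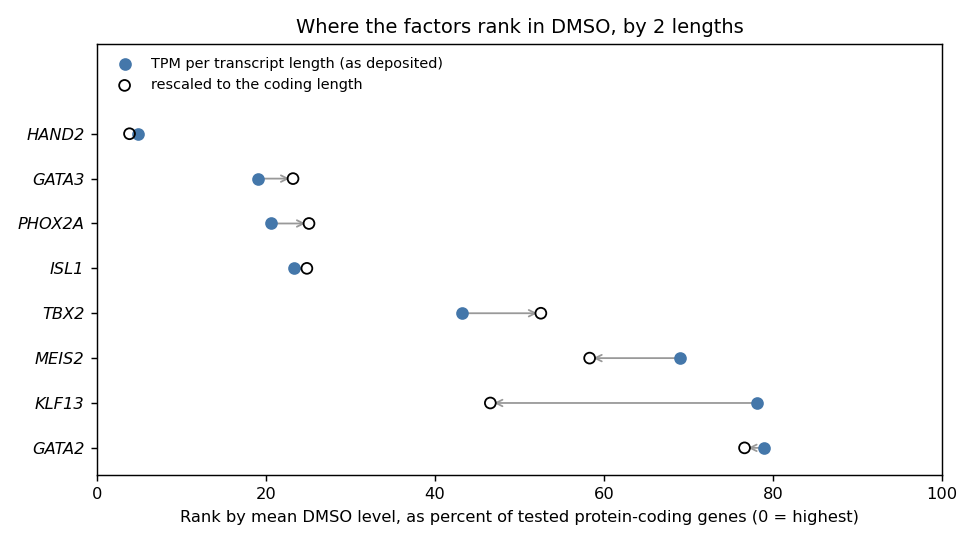
Rank of each factor by mean DMSO level as a percent of 9996 tested protein-coding genes (0 is the highest), with filled points for TPM as deposited and open points for levels rescaled to the coding length. KLF13 moves farthest, from rank 7811 to 4653, and GATA2 keeps the lowest place.

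The summed level of the 8 factors was 340.16, 291.69, 293.39 and 331.92 TPM in DMSO and 398.19, 380.12, 470.79 and 416.76 TPM in CR31B. The groups did not overlap, but HAND2 makes up most of this sum: the other 7 together were at 133 ± 13.2 TPM in DMSO and 145 ± 11.8 TPM in CR31B (SD, n = 4 each), and overlapped. The makeup of the sum is given as shares, without a test. HAND2 took 57.7% ± 2.60 in DMSO and 65.05% ± 2.36 in CR31B, TBX2 took 4.199% ± 1.53 and 6.14% ± 0.898, and PHOX2A took 11.7% ± 1.195 and 6.80% ± 1.42 (SD, n = 4 each). The shares of HAND2, PHOX2A, ISL1, KLF13 and MEIS2 did not overlap between groups, and those of TBX2, GATA2 and GATA3 did. Such shares have no counterpart over all tested genes. The TPM values of PHOX2A, ISL1 and MEIS2 themselves overlapped, and those of TBX2 did not. Since shares sum to a fixed total, a larger part for HAND2 lowers the others. The ratio of HAND2 to PHOX2A within a library, a pair chosen after the values were seen, was from 4.28 to 5.76 in DMSO and from 7.42 to 13.5 in CR31B. The ratio of GATA3 to GATA2 ranged from 8.92 to 21.8 in DMSO and from 9.37 to 20.04 in CR31B, which overlap almost entirely.

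**Figure D4:**
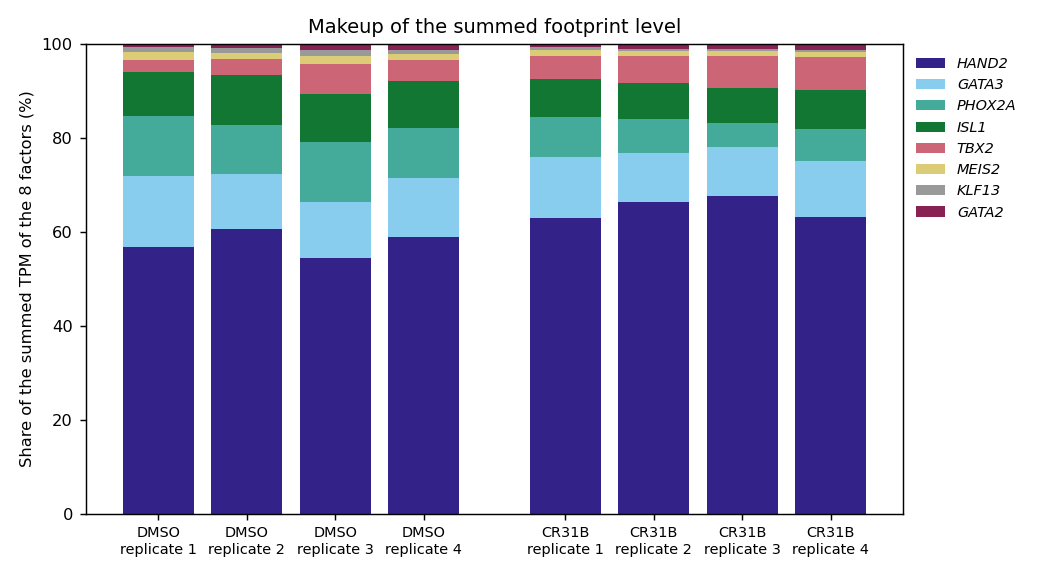
Stacked bars of the share (%) of each factor in the summed TPM of the 8, for each of the 8 libraries. HAND2 fills 54.5% to 60.5% of the DMSO bars and 62.9% to 67.7% of the CR31B bars, and the PHOX2A segment is narrower in every CR31B bar.

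Antisense or divergent non-coding genes are named for 4 further factors. MEIS2 also has an antisense gene that bears no name of its own, AC078909.1, which overlaps 431 of its 10798 exonic bases and had means of 2.00 TPM in DMSO and 1.6 TPM in CR31B. TBX2-AS1 was at 2.69 ± 0.375 TPM in DMSO and 3.83 ± 0.548 TPM in CR31B (SD, n = 4 each), with no overlap and a log2 difference of 0.39 (adjusted p in limma 0.136). The log2 difference was 0.51 for GATA2-AS1, 0.026 for GATA3-AS1 and 0.18 for ISL1-DT (adjusted p in limma 0.179, 0.930 and 0.694). Of the 5 genes named for a factor, HAND2-AS1 included, limma called 0 at an adjusted p under 0.05, and 3 had an unadjusted p under 0.05, as had 23.4% of all tested genes.

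Relatives of the factors were read for comparison. GATA1, GATA4, GATA5 and GATA6 were listed at 0 in all 8 libraries. MEIS1 was far above MEIS2 in TPM, at 105.1 ± 10.4 in DMSO and 92.9 ± 8.93 in CR31B (SD, n = 4 each). HAND1 stood at 25.2 ± 1.92 and 21.9 ± 3.59 TPM, below HAND2, at a log2 difference of -0.21 (adjusted p in limma 0.374). Of 38 relatives listed, 16 were tested, 1 was called higher (KLF3) and none lower, against 7.46% of all tested genes called. The relatives had a median log2 difference of 0.12. KLF3, a Krüppel-like repressor, rose from 12.4 ± 2.16 to 25.9 ± 6.54 TPM (log2 difference 0.98, SE 0.19, adjusted p 0.0122 by limma), while KLF13 fell. With the replicate block TBX20 passed as well, at a log2 difference of 0.53 (adjusted p in limma 0.0480), as did 12.3% of all tested genes.

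Proteins that bind the factors had a median log2 difference of 0.038. Against 7.46% of all tested genes, 2 of the 23 tested were called, both higher. These were the inhibitors ID1 and ID3, which sequester the E proteins that helix-loop-helix factors such as HAND2 pair with. ID1 rose from 78.2 ± 19.2 to 151 ± 14.1 TPM (SD, n = 4 each; log2 difference 0.97, SE 0.17, adjusted p 0.00835 by limma). ID3 rose from 30.5 ± 7.73 to 56.1 ± 9.36 TPM (log2 difference 0.88, SE 0.20, adjusted p 0.0252 by limma). ID2 was the highest gene of this list and was at 124.6 ± 18.5 and 127 ± 13.9 TPM, a log2 difference of 0.038 (adjusted p in limma 0.904). The E proteins TCF3, TCF4 and TCF12 had log2 differences of -0.32, 0.038 and -0.21 (adjusted p in limma 0.126, 0.926 and 0.468). When TPM was rescaled over protein-coding genes, 4 of the list passed, and with the replicate block HDAC2 was added (-0.41, limma adjusted p of 0.0309). Over all tested genes, 1233 of 10373 passed with that rescaling and 12.3% with the block.

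Among 18 further transcription factors published for the adrenergic state, 16 were tested and limma called 0, while 3 had an unadjusted p under 0.05 and the groups did not overlap for 2. Both counts are no larger a share than over all tested genes (23.4% and 16.2%). Their median log2 difference was -0.064. MYCN, the highest of them, stood at 593 ± 55.9 TPM in DMSO and 891 ± 229.8 TPM in CR31B (SD, n = 4 each). Its groups overlapped, at a log2 difference of 0.55 with a limma adjusted p of 0.110 (0.0301 with the replicate block). With that block 2 of the list passed, MYCN among them, as did 12.3% of all tested genes. TFAP2B was listed at no more than 0.01 TPM in any library. The opposite, mesenchymal state is marked by another set of 27 factors, of which 14 were tested, with a median of 0.14. Against 7.46% of all tested genes, 2 of the 14 were called, both higher. These were ID1, which also stands in the list of binding proteins, and the glucocorticoid receptor NR3C1, which rose from 2.83 ± 0.799 to 6.41 ± 1.63 TPM (log2 difference 0.95, SE 0.20, adjusted p 0.0189 by limma). TWIST1, a helix-loop-helix factor, was about as high as PHOX2A, at 35.7 ± 6.53 TPM in DMSO and 36.5 ± 2.97 TPM in CR31B (SD, n = 4 each; log2 difference 0.045, adjusted p in limma 0.894). PRRX1 and RUNX2 were listed at 0 in all libraries, and FOSL1, WWTR1 and RUNX1 had means under 1 TPM. With the replicate block 4 passed, JUN (higher) and MAFF (lower) being added.

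Of 16 tested target genes of the adrenergic factors, 3 were called lower and 0 higher, against 4.02% and 3.45% of all tested genes. The targets had a median log2 difference of -0.056. GAP43, a growth cone protein, fell from 8.16 ± 1.02 to 3.54 ± 0.654 TPM (log2 difference -1.02, SE 0.14, adjusted p 0.00354 by limma). MAB21L2 fell from 46.4 ± 4.52 to 25.9 ± 2.43 TPM (-0.82, limma adjusted p of 0.00341), and the receptor kinase gene ALK from 6.21 ± 0.443 to 4.15 ± 0.502 TPM (-0.49, limma adjusted p of 0.0416). The related MAB21L1 had a log2 difference of 0.31 (adjusted p in limma 0.117). CHRNA3, a nicotinic receptor subunit and the highest of the list, was at 118 ± 18.05 and 123 ± 19.7 TPM (0.068, limma adjusted p of 0.830). With the replicate block 6 passed, with DBH (-0.43), DDC (-0.53) and SCG2 (0.46) added, while 12.3% of all tested genes passed.

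**Figure D5:**
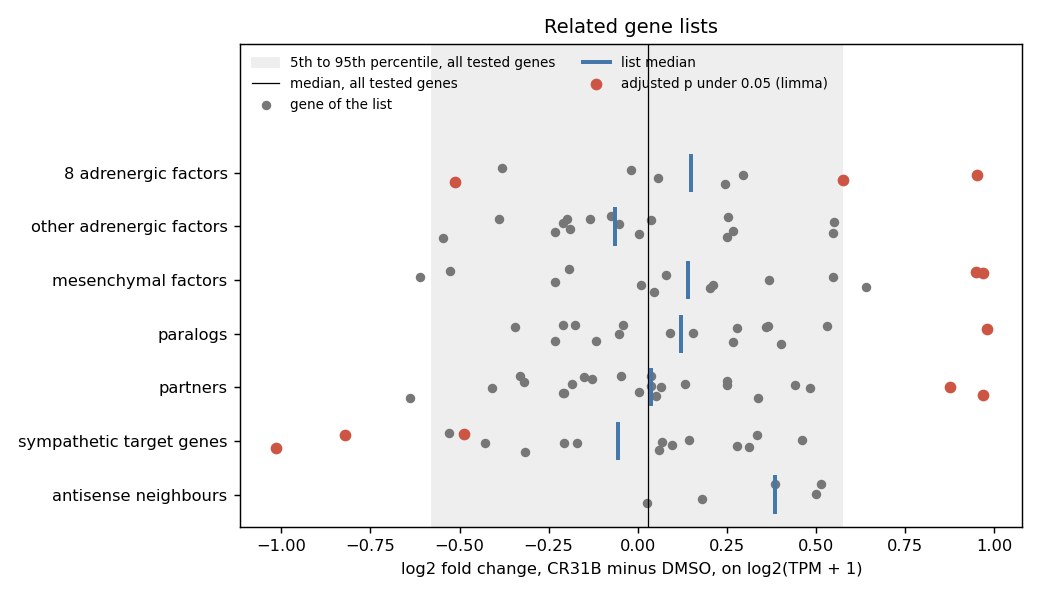
Log2 fold change of every tested gene in the 8 factors and the 6 related lists, with called genes in red, list medians in blue and the range of all tested genes in grey. The called genes are spread over both directions in the 8 factors, lie to the right in relatives, binding proteins and mesenchymal factors, and to the left in target genes.

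Genes with the most similar profile were found by Pearson correlation of log2(TPM + 1) over the 8 libraries, among 5608 genes averaging 10 TPM or more. TBX2 was followed most closely by TLE3 (r of 0.98), a Groucho-type corepressor that rose by 1.17 (adjusted p in limma 0.0365), and by PPP4R3A (0.97). KLF13 was followed by ANKRD46 and CTBP2 (0.99 each), which changed by -0.68 and -0.47 (adjusted p in limma 0.00900 and 0.0331). HAND2 was followed by RAB34 and CPSF2 (0.98 each), and PHOX2A by RANGAP1 (0.99) and DAZAP2 (0.97). The nearest genes were GET4 and SEPTIN10 for GATA2 (0.92 and 0.90), RUSF1 and SLC39A14 for GATA3 (0.97 and 0.94), RNU7-1 and NIPSNAP2 for ISL1 (0.96 and 0.95), and STYXL1 and YIF1B for MEIS2 (0.96 and 0.95). RNU7-1 is a small nuclear RNA gene, not a coding gene, with means of 14962 TPM in DMSO and 16897 TPM in CR31B. The correlations describe the 8 libraries only, and the group difference enters them for the factors that changed. Each was picked as 1 of the 2 highest among 5608 genes, and how high such picks run by chance was not tested.

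The labelled cell type was compared with its markers. Of 10 sympathetic neuroblast markers 9 were tested, and their summed level was from 1072 to 1300 TPM in DMSO and from 1087 to 1715 TPM in CR31B. MYCN, which is amplified in this line, made up much of these sums, with 542 to 647 TPM in DMSO and 595 to 1076 TPM in CR31B, and GAP43, called lower, is 1 of the 10. TH, the first enzyme of catecholamine synthesis, was at 0.995 ± 0.212 and 0.820 ± 0.347 TPM (SD, n = 4 each), and so nearly absent. Summed markers of endothelium, led by CDH5, were at most 1.06 TPM and those of leukocytes, led by CD68, at most 0.22 TPM in any library. SOX10, a marker of Schwann cells, was listed at 0 throughout, as were PECAM1, CD3E and MS4A1. The 7 fibroblast markers summed to 22.8 to 33.9 TPM in DMSO and 22.4 to 32.07 TPM in CR31B, mostly from PDGFRA and COL1A1, while DCN, LUM and COL3A1 had means under 1 TPM.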

How the data were processed

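RNase I digestion gave footprints that were size-selected on a gel and made into small RNA libraries with ribosomal RNA blocked, per the labels' protocols. The authors deposited 1 table of gene-level TPM. The submitters' processing notes name cutadapt 3.2, Bowtie2 2.3.4.1, STAR 2.7.1a and RSEM 1.2.28 and the builds hg38 and GRCh38. The annotation, the strand setting and the rule for reads with several positions are not given in the sources used here. TPM fixes each library's sum, so 1 abundant class lowers all others.

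Values were fitted as log2(TPM + 1) with limma 3.58.1 in R 4.3.3, treatment being the only term. The fit was also run on simulated data with independent noise and with changes larger than in any of the 8 factors. That run does not bear on the calls of the factors. For single values an exact permutation test (two-sided, 70 assignments) was run, without adjustment of its p-values. Positions, lengths and sequences are from GENCODE release 29, which uses GRCh38. Reads were estimated from the TPM that 1 read gave in single-transcript non-coding genes. This unit was chosen in each library for the best fit of their low values to whole numbers. With it, 65.8% to 72.9% of those same values lay within 0.2 of a whole number, which is no independent check. With 1 annotated transcript taken per gene, the 8 factors rested on 539 to 44265 estimated reads per library.

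The members and lists were chosen with earlier results of these data known. Named were all members, from each list the called genes with the largest rise and fall and the gene with the highest mean, and for each member its 2 most similar genes. NR3C1, ID3, MAB21L2, ALK and other genes given beside a count were named after their values were seen, and some items that the rule names are not reported here. Replicate numbers occur in both groups. With each gene centred in its group, same-numbered libraries correlated across genes at 0.333, 0.324, 0.301 and 0.105, against -0.206 to 0.134 for other pairs. The value of 0.105, for number 4, lay within the range of the other pairs. An alternative took the numbers to pair the libraries and added the replicate block, while the main fit did not use them. Other alternatives were pseudocounts, filters, scalings, the variance prior and leaving out each library. The summing of HAND2 with HAND2-AS1 and the rescaling to coding length were chosen after seeing the data. Python 3.11.15, NumPy 2.4.6 and pandas 2.3.3 served for the other steps.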

Additional observations from a re-analysis of the deposited data

Results flagged for a closer look

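Among the CR31B libraries, MEIS2 was lowest in replicate 2, at 3.76 TPM, while replicates 1, 3 and 4 lay between 4.97 and 5.07 TPM. The distance of that library from its nearest neighbour made up most of the spread in the group. It was the only such case in 26 groups of 4 libraries checked, where chance gives about 1 in 20, or 1.3.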

How the results depend on the processing

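Over 18 alternatives HAND2 kept its direction (0.50 to 0.64) and was called in 17. TBX2 (0.78 to 1.12) was called in 11 of 17 and KLF13 (-0.69 to -0.24) in 7 of 16. Leaving out 1 library each gave 0.50 to 0.61 for HAND2, 0.82 to 1.12 for TBX2 and -0.55 to -0.48 for KLF13, 0 to 2 called factors and 405 to 785 called genes in all. Without a filter TBX2 and KLF13 kept changes of 0.95 and -0.51 but lost the call (limma adjusted p of 0.117 and 0.0936) with 28564 genes tested, and the cause was not tested; 1 factor and 442 genes were called. MEIS2, never called, turned to 0.011 when rescaled over protein-coding genes, and ran from -0.073 to 0.067 with 1 library left out (0.031 without DMSO replicate 1, 0.067 without CR31B replicate 2, 0.020 without DMSO replicate 3). The other 4 factors kept their direction and were never called, at -0.47 to -0.30 for PHOX2A, 0.16 to 0.45 for GATA2 (0.16 with a pseudocount of 5, 0.19 without CR31B replicate 3, 0.45 without CR31B replicate 1), 0.17 to 0.36 for GATA3 and 0.018 to 0.11 for ISL1 (0.018 without CR31B replicate 3, 0.11 without CR31B replicate 2). The replicate block called 1453 genes, 2 further adrenergic factors, 4 mesenchymal factors, 2 relatives, 6 target genes and 1 antisense neighbour; it changed the call of no factor. Called further adrenergic factors were 1 at a filter of 10 TPM, 2 after rescaling over protein-coding genes, 1 without the variance trend, and 0 to 1 with 1 library left out. Mesenchymal factors were 1 without a filter, 1 at a filter of 10 TPM and 1 to 3 with 1 library left out. Relatives were 0 without a filter and 2 after rescaling over protein-coding genes, binding proteins 1 without a filter, 4 under each of the 3 rescalings (protein-coding, quantile, median of ratios) and 1 to 2 with 1 library left out, and target genes 1 at a filter of 10 TPM. GATA2, KLF13 and MEIS2 could not be tested at that filter. Over all tested genes, 640 of 5613 were called there, and 1233 of 10373 after rescaling over protein-coding genes. Quantile and median of ratios scaling called 1174 and 1160 of 11778.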
